A study of Mus musculus with 16 samples.

Results

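The effect of a 24 h fast that wild-type and FoxO-deficient muscle have in common was described in mouse quadriceps. All 16 arrays of the series were used, and the mean of both fasted groups was set against the mean of both fed groups, so that each genotype carried equal weight. Of 21282 genes tested, 56 changed by a like amount in both genotypes, and these 56 genes are the ones described most closely. A gene was counted among them where it passed the mean fasting contrast and where the whole 95% interval of the difference between its 2 fasting changes lay within 0.5 of its mean change. Anywhere in such an interval the smaller change is at least 0.6 of the larger one.

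The mice were males aged 8 weeks. Fed wild-type mice (WT) and fed mFoxO-TKO mice had food at all times, and fasted WT and fasted mFoxO-TKO mice had none for 24 h before the quadriceps was taken. In the mFoxO-TKO mice Foxo1, Foxo3 and Foxo4 were deleted in skeletal muscle by a Cre recombinase under the human skeletal actin promoter, which leaves the genes intact in the other cells of the muscle. There were 4 mice in each of the 4 groups, with 1 array per mouse. Replicates 1 and 2 of every group lay on slide 1 and replicates 3 and 4 on slide 2. On each slide a group had a column of its own, so position on the slide and group cannot be told apart.

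Insulin signalling holds the FoxO transcription factors outside the nucleus. When insulin falls, as in a fast, they enter it and raise genes of protein breakdown and autophagy in muscle. A fast also raises blood fatty acids, which activate the PPAR receptors, and glucocorticoids, which act through their own receptor. Both act on muscle genes through receptors of their own.

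Well above background were 45.0% to 75.2% of spots, depending on the array, 0 spots were saturated, and any 2 arrays correlated at 0.943 or more. Fasted mFoxO-TKO replicate 1 had the lowest share above background and the most outlier spots (3.28%). Levels are given as the log2 signal minus the 75th percentile of the array, and a change is the difference of group means on that scale ± its standard error from limma. Foxo1, on the brighter of its probes, lay between 2.66 and 3.11 on fed WT arrays and between 0.66 and 1.63 on fed mFoxO-TKO arrays. For Foxo4 0 of 8 mFoxO-TKO arrays were well above background, and its level was at least 6.76-fold (fed) and at least 6.14-fold (fasted) below WT. Foxo3 had 1 dim probe, which lay between -4.46 and -3.90 in fed WT and between -3.67 and -3.06 in fed mFoxO-TKO mice. Whether these probes lie in the deleted parts of the genes is not given in the sources used here. All 10 skeletal muscle markers, such as Acta1, Ckm and Myh4, were well above background on all 16 arrays, and 0 of them passed the mean fasting contrast.

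The first question was how much of the fasting response the genotypes shared. In the mean contrast 5815 genes passed (27.3% of genes tested, Benjamini-Hochberg adjusted limma p under 0.05), 3095 of them higher (14.5%) and 2720 lower (12.8%) after the fast. Of the passing genes 53.2% were thus higher, a share that was 39.4% when arrays were scaled on probes above background on all arrays and 43.1% in the authors' value table. Fasting alone passed for 4426 genes in WT (20.8%, with 11.2% higher and 9.57% lower) and for 1814 in mFoxO-TKO mice (8.52%), the latter 1078 without fed replicate 2, 1202 without fed replicate 3 and 1085 without fasted replicate 3 of mFoxO-TKO. In both genotypes and in the same direction, 1293 genes passed (6.08%, with 3.05% higher and 3.02% lower), or 856 without fed mFoxO-TKO replicate 2. They made up 29.2% of the WT calls and 71.3% of the mFoxO-TKO calls. Another 9 genes passed in opposite directions. Over all genes tested 71.8% had the same sign in both genotypes. Among the WT calls 91.7% had the same sign in mFoxO-TKO mice, with a median ratio of mFoxO-TKO to WT change of 0.502. Among the mFoxO-TKO calls 97% had the same sign in WT mice, with a median ratio of WT to mFoxO-TKO change of 0.933. Each ratio covers only genes called in the genotype of its denominator. Such a choice enlarges the denominator and lowers both ratios, so they do not measure the part of the response kept. Over all 21282 genes, which share arrays and are not independent, the changes correlated at Pearson's r = 0.623 and Spearman's rho = 0.589. No mice were shared by the 2 fasting comparisons.

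**Figure D1:**
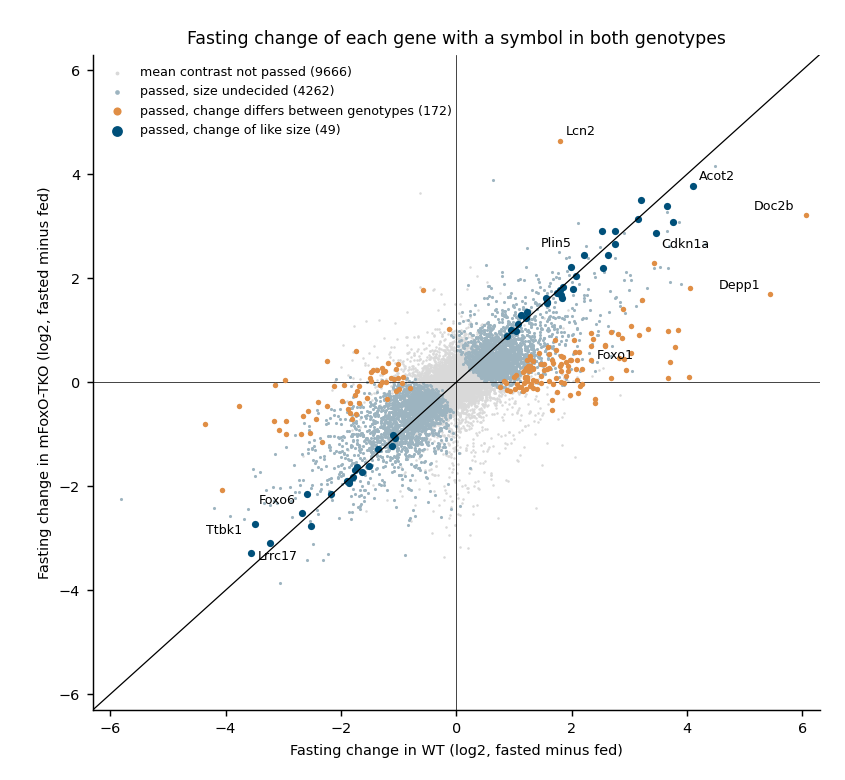
Fasting change in WT (x axis) against fasting change in mFoxO-TKO mice (y axis), both log2 fasted minus fed, for each gene with a symbol, coloured by class; the diagonal marks equal change. Genes of like size such as Acot2 (4.11 and 3.77) lie along the diagonal, whereas Depp1 (5.44 and 1.70) lies below it and Lcn2 (1.79 and 4.65) above it.

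The 5815 passing genes fell into 3 classes. Those of like size numbered 56 (0.263% of genes tested), 33 higher and 23 lower, of which 49 had a gene symbol. For 211 passing genes the fasting changes differed between the genotypes at an adjusted p under 0.05. The same test called 244 genes in all, or 1.15%, and 564 with slide as a block or 133 to 437 when 1 array was left out, so these classes belong to the fit without a block. The numbers 133 and 437 came without fed WT replicate 4 and without fasted mFoxO-TKO replicate 1. Of the 211, 155 changed less in mFoxO-TKO mice, 2 changed more and 54 had opposite signs. The remaining 5548 were undecided: the interval of the difference reached past the limit and the difference itself did not pass. Their median interval half-width was 0.61 against a median mean change of 0.64, and 1219 of them changed at least 2-fold. Single arrays moved the count of 56, to 81 without fasted mFoxO-TKO replicate 1 (43 of the 56 among them), to 35 and 32 without fed mFoxO-TKO replicate 3 or 4, and to 37 without fasted WT replicate 4. By point estimates alone, 2930 passing genes (13.8%) had a smaller change of at least 0.6 of the larger.

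In all 56 genes, both genotypes passed separately and the fasted arrays did not overlap the fed arrays in either genotype. The second property held for 8.15% of all genes tested. Mlph, Gpr179, Il22ra2, Rufy4, Lrrc17, Ppm1n, Ttbk1 and Syt13 passed the filter on dim probes only through the feeding state where they were higher. For these genes the filter favours a lack of overlap, and the size of the change rests in part on dim signals. For 1 of the 56, Syt13, neither fasted group was above background, so its falls are bounds. The rule used these changes, so they are given without a test. At the limit, Tlcd2 (-1.36 in WT and -1.28 in mFoxO-TKO) and Lrrc17 (-3.56 and -3.28) lay just inside. Lao1 (2.29 and 2.39) and Sec24a (1.29 and 1.13) lay just outside, so membership close to the limit does not mark a gene off from its neighbours.

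**Figure D2:**
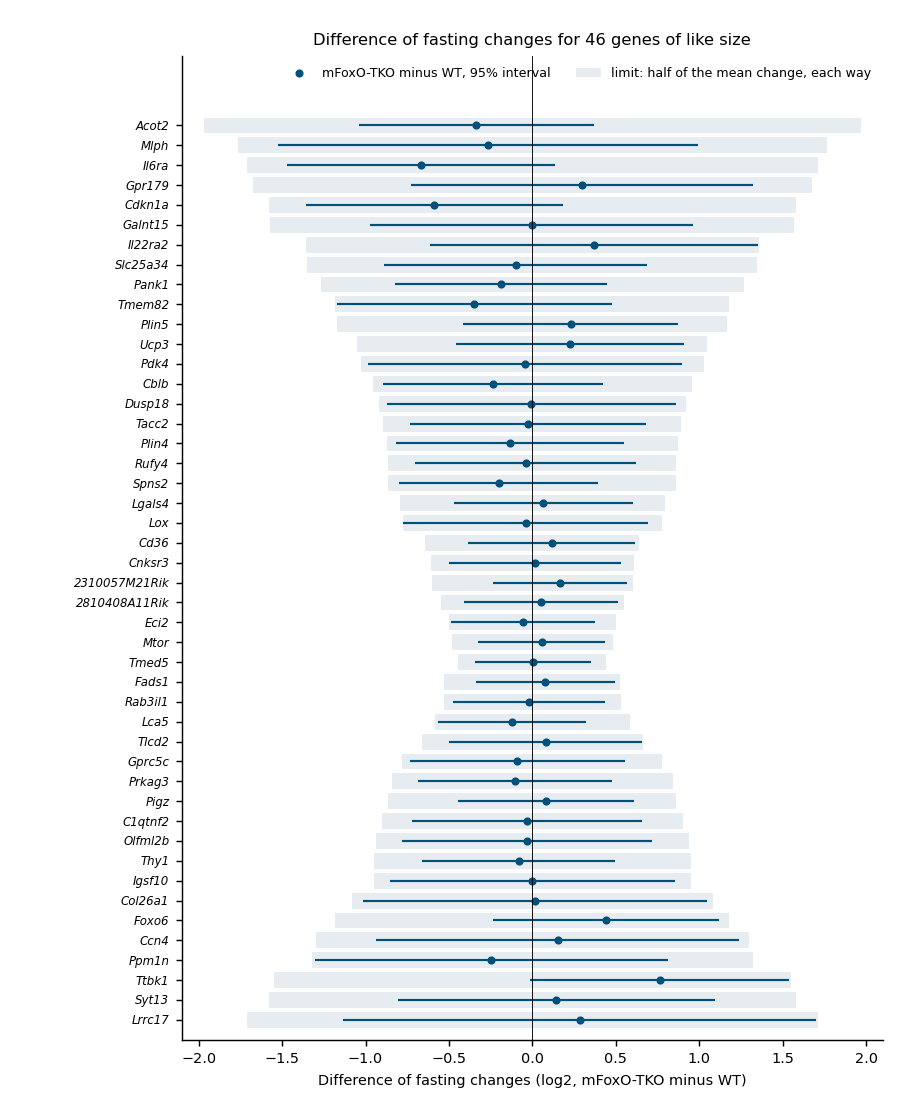
Difference between the fasting changes (x axis, log2, mFoxO-TKO minus WT; point and 95% interval) of 46 genes of like size with a symbol, ordered by mean change; the pale bar is the limit of 0.5 of the mean change on each side. Every interval lies inside its bar, and those of Tlcd2 and Lrrc17 reach nearest to the edge, while that of Ttbk1 (-0.01 to 1.54) lies almost wholly above 0.

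Promoter sequence was not part of the rule. RefSeq promoters (build GRCm38.p6, 250 bases before the start) were found for 25 of 30 genes of like size that rose (29 windows) and for 11 of 19 that fell (16 windows), against 14307 windows of all tested genes with a symbol. Both strands were searched. The canonical FoxO site GTAAACA stood in 6.90% of the windows of genes that rose, in 0% of those that fell and in 2.22% of all windows. The E-box CACGTG, read by clock factors and other helix-loop-helix proteins, stood in 13.8%, 18.8% and 8.00%. The CCAAT box CCAAT stood in 51.7%, 31.3% and 34.2%. Windows of 1 gene can overlap, so that a site is counted again, as for the E-boxes of Rab3il1 and the CCAAT boxes of Lca5. By gene, the E-box stood in 2 and the CCAAT box in 4 of the 11 genes that fell. The cAMP element TGACGTCA, the D-box TTATGTAA, the glucocorticoid element (AGAACA and TGTTCT parted by 3 bases), the PPAR element (AGGTCA and AGGTCA parted by 1 base) and the sterol element (ATCAC and CCAC parted by 1 base) were in 0 windows of genes of like size. Over all windows their shares were 2.31%, 0.524%, 0.007%, 0.021% and 0.161%. With so few windows 1 match moves a share by several points, and a match is a description of letters only. The E-box stood in windows of Mlph, Il6ra, Cnksr3, 2310057M21Rik, C1qtnf2 and Rab3il1. The promoter of Mlph is shown because Mlph had the largest mean change among these. It rose by 3.53 ± 0.30 in the mean contrast (1.57 to 4.05 over 27 alternatives), with 1 of 4 fed arrays of each genotype above background. The promoters of Pank1 and Cnksr3 were chosen after the search, as the 2 windows of genes of like size that hold the FoxO site. Capitals mark only the motif for which a window is shown. The E-box of Cnksr3, 35 bases before the start, is thus in lower case. Each sequence is written 5′ to 3′ in the gene's direction. Mlph lies at chr1:90914850-90915099 on the plus strand, with the match 48 bases before the start. Pank1 lies at chr19:34879456-34879705 and Cnksr3 at chr10:7212238-7212487, both on the minus strand, each with the site in reverse complement 213 bases before the start. Pank1 has 2 promoter windows, of which the other held no FoxO site.
Mlph: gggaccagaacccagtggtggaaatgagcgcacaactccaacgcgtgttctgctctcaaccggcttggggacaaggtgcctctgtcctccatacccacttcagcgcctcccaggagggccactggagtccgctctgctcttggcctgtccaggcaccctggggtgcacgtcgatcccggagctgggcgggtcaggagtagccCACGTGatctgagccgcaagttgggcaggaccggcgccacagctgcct
Pank1: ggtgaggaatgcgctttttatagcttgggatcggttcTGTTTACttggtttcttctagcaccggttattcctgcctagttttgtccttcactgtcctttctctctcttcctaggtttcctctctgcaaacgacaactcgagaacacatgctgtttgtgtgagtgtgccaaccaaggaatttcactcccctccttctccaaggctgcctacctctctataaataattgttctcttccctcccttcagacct
Cnksr3: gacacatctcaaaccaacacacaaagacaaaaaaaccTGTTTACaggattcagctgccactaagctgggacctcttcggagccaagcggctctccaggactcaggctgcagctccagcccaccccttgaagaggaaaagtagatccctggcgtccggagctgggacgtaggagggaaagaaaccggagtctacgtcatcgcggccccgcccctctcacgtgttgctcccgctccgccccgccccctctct

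In fat handling, 4 of 26 genes of lipid uptake, droplets and thioesters and 1 of 25 genes of fatty acid oxidation were of like size. These rose, and 0.263% of all genes tested were of like size. Acot2, a mitochondrial thioesterase that frees fatty acids from coenzyme A, had the largest change of like size. Its level was -0.63, -0.13, -0.61 and -1.24 on fed WT arrays and 2.94, 3.45, 3.53 and 3.90 on fasted WT arrays. On the mFoxO-TKO arrays it was -1.44, -0.96, -1.13 and -1.39 fed and 2.34, 2.33, 2.76 and 2.74 fasted. Every fasted array lay above every fed array, and the rise was 4.11 ± 0.23 in WT (17.3-fold) and 3.77 ± 0.23 in mFoxO-TKO mice (13.7-fold). It was of like size under all 29 alternatives. Its close paralog Acot1 gave 4.49 ± 0.75 and 4.17 ± 0.75, too wide for the rule. Signal shared between probes of these similar genes was not tested.

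Plin5 coats lipid droplets and ties them to mitochondria in oxidative tissue. It lay at 4.65, 4.77, 4.82 and 4.26 on fed and 6.95, 7.0, 6.63 and 6.81 on fasted WT arrays. On mFoxO-TKO arrays it lay at 5.26, 4.32, 4.22 and 4.56 fed and 6.71, 7.07, 7.35 and 7.04 fasted. Fed replicate 1 of mFoxO-TKO was the highest fed array and still lay below every fasted one. The rises were 2.22 ± 0.21 (4.67-fold) and 2.45 ± 0.21 (5.48-fold). Plin4, another droplet coat protein, rose by 1.81 ± 0.23 and 1.68 ± 0.23. Cd36, which carries fatty acids across the cell membrane, rose by 1.23 in WT and 1.34 in mFoxO-TKO mice, with 2 fed and 1 fasted mFoxO-TKO array left out as outlier spots. Eci2, an auxiliary enzyme for the oxidation of unsaturated fatty acids, rose by 1.03 and 0.98. Cd36 met the like-size rule under 14 of 25 alternatives that could be fitted for it, and Eci2 under 13 of 28.

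Of 26 genes of lipid uptake, droplets and thioesters, 16 rose and 2 fell in the mean contrast, 14 rose and 2 fell in WT, and 16 rose and 0 fell in mFoxO-TKO mice. By comparison 14.5%, 11.2% and 4.29% of all genes tested rose in these contrasts in turn, and 12.8%, 9.57% and 4.23% fell. The list's median change was 0.77 in WT and 0.90 in mFoxO-TKO mice, against 0.02 and 0.04 over all genes tested. Angptl4, an inhibitor of lipoprotein lipase, changed by 2.24 ± 0.26 in the mean contrast and Cidec, which enlarges lipid droplets, by 1.31 ± 0.23 (adjusted p at most 5.53e-04). The 2 that fell, chosen after their values were seen, were G0s2, an inhibitor of the lipase of droplets (-2.08 in WT and 0.06 in mFoxO-TKO), and Acot11 (-1.18 and -0.27). Of 25 genes of fatty acid oxidation, 15 rose and 1 fell in the mean contrast, with 6 and 1 in WT and 5 and 0 in mFoxO-TKO mice, and medians of 0.43 and 0.45. Without the filter on dim probes 8 rose. Slc25a20, the carnitine-acylcarnitine carrier, rose by 1.1 ± 0.08 (0.96 in WT and 1.23 in mFoxO-TKO, adjusted p = 5.57e-07) and Acadl, a long-chain dehydrogenase, by 0.97 ± 0.16 (0.96 and 0.99, adjusted p = 3.85e-04). Abcd2, a peroxisomal transporter, fell by 1.68 ± 0.32 (adjusted p = 0.00143).

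**Figure D3:**
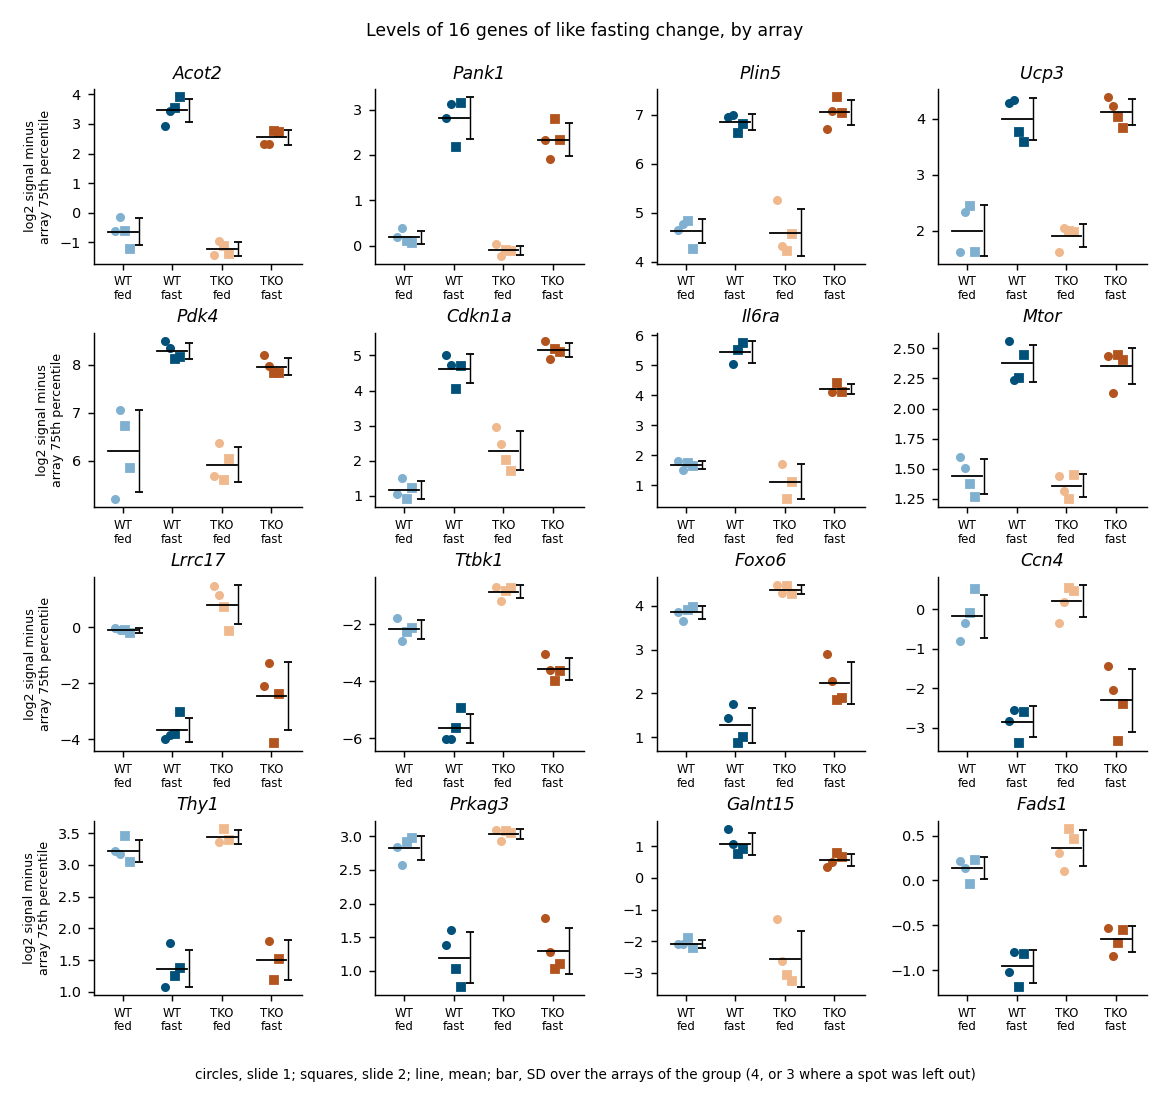
Level of 16 genes of like size on each array (y axis, log2 signal minus the array's 75th percentile) by group (x axis); circles are slide 1, squares slide 2, lines group means and bars the SD. In each panel the fasted arrays lie to 1 side of the fed arrays in both genotypes, for example Acot2 from 2.33 to 3.90 fasted against -1.44 to -0.13 fed.

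Genes that turn muscle from glucose to fat included Pdk4 and Ucp3 among those of like size. Pdk4 phosphorylates and so inhibits pyruvate dehydrogenase. Its level was 5.19, 7.06, 6.73 and 5.84 on fed and 8.49, 8.36, 8.13 and 8.17 on fasted WT arrays. In mFoxO-TKO mice it was 5.69, 6.37, 5.59 and 6.03 fed and 8.20, 7.98, 7.83 and 7.83 fasted. Fed WT arrays were spread more widely than fasted arrays, and no fed array reached a fasted one. The rise was 2.08 ± 0.31 in WT and 2.04 ± 0.31 in mFoxO-TKO mice. Pdk4 met the like-size rule under 9 of 29 alternatives, and its interval of the difference was -0.98 to 0.90. Ucp3, a mitochondrial carrier raised by fatty acids, rose by 1.99 ± 0.23 and 2.21 ± 0.23, and by 1.81 and 1.75 on its other probe. Its fasted arrays lay from 3.58 to 4.39 and its fed arrays from 1.61 to 2.45.

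Of 25 genes of the fuel switch, 10 rose and 2 fell in the mean contrast, against 8 and 1 in WT and 5 and 2 in mFoxO-TKO mice. Over all genes tested 14.5% rose in the mean contrast, 11.2% in WT and 4.29% in mFoxO-TKO mice. Lpin1, a coactivator of PPAR alpha and lipid phosphatase, rose by 1.36 ± 0.19 and 1.11 ± 0.19 (mean contrast adjusted p = 1.04e-05). Its dimmer probe gave 0.75 in WT and 1.28 in mFoxO-TKO mice, so the probes differ on which genotype rose more. Pdp2, the phosphatase that opposes Pdk4, rose by 2.83 in WT and 1.46 in mFoxO-TKO mice, with a difference of -1.37 (95% interval -2.23 to -0.52). Fbp2, the muscle fructose bisphosphatase, went the other way, with 1.22 in WT and 2.22 in mFoxO-TKO mice (0.48 to 1.53). Neither difference passed over all genes, and neither gene was of like size. The 2 genes that fell, chosen after their values were seen, were the other phosphatase gene Pdp1 (-1.25 and -1.01) and Pdk3 (-0.57 and -0.64). In the list of ketone body use, Bdh1 rose. Bdh1, which interconverts ketone bodies, changed by 0.88 and 0.78 (mean contrast adjusted p = 0.00186).

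Other genes of energy metabolism also stood among those of like size. Slc25a34, a mitochondrial carrier, rose by 2.75 ± 0.26 and 2.65 ± 0.26. Pank1, which starts the synthesis of coenzyme A, rose by 2.63 ± 0.21 and 2.44 ± 0.21, from levels between -0.22 and 0.38 fed to 1.90 and 3.16 fasted. Prkag3, the muscle gamma subunit of the energy sensor AMPK, fell. It lay at 2.84, 2.58, 2.91 and 2.98 on fed and 1.38, 1.61, 1.03 and 0.76 on fasted WT arrays. On mFoxO-TKO arrays it lay at 3.09, 2.92, 3.07 and 3.04 fed and 1.78, 1.29, 1.03 and 1.1 fasted. No array overlapped between the feeding states, and the falls were -1.63 ± 0.19 and -1.73 ± 0.19.

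Lipid synthesis fell in both genotypes. Of 26 genes, 14 fell and 1 rose in the mean contrast, 13 fell and 1 rose in WT, and 11 fell and 1 rose in mFoxO-TKO mice. By comparison 12.8%, 9.57% and 4.23% of all genes tested fell in these contrasts in turn. The list's median change was -0.63 in WT and -0.39 in mFoxO-TKO mice. Fads1, a desaturase of polyunsaturated fatty acids, was of like size. Fads1 lay at 0.22, 0.14, -0.04 and 0.23 on fed and -1.02, -0.80, -1.19 and -0.82 on fasted WT arrays. On the mFoxO-TKO arrays it lay at 0.30, 0.11, 0.58 and 0.46 fed and -0.53, -0.84, -0.69 and -0.55 fasted. The falls of -1.09 ± 0.14 and -1.01 ± 0.14 were small but tight, with no overlap. Undecided were Fasn, fatty acid synthase (-2.88 ± 0.35 and -2.02 ± 0.35), Elovl6, which lengthens fatty acids (-2.52 and -2.03), and Scd2, a stearoyl-CoA desaturase (-1.68 and -2.44), each with a mean contrast adjusted p of at most 5.53e-06. Acacb, the mitochondrial acetyl-CoA carboxylase and chosen after its values were seen, was the 1 that rose, by 0.90 and 0.78 (mean contrast 0.84 ± 0.09).

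Glucocorticoid-responsive genes rose in both genotypes, with only Cdkn1a of like size. Cdkn1a encodes the cell cycle inhibitor p21. Its level was 1.05, 1.51, 0.90 and 1.23 on fed and 5.02, 4.73, 4.04 and 4.71 on fasted WT arrays. In mFoxO-TKO mice it was 2.96, 2.46, 2.01 and 1.70 fed and 5.41, 4.91, 5.19 and 5.11 fasted. Fed mFoxO-TKO arrays all lay above fed WT arrays, and fasted arrays lay above all fed ones. The rises were 3.46 ± 0.26 (11-fold) and 2.87 ± 0.26 (7.31-fold). Of 25 genes of the list, 21 rose and 1 fell in the mean contrast, against 18 and 1 in WT and 13 and 0 in mFoxO-TKO mice. In both genotypes 12 rose. Over all genes tested 14.5% rose in the mean contrast, 11.2% in WT, 4.29% in mFoxO-TKO mice and 3.05% in both. The list's median was 1.69 in WT and 1.01 in mFoxO-TKO mice. Ddit4, an inhibitor of mTORC1, rose by 3.86 ± 0.43 and 3.08 ± 0.43. The metallothionein gene Mt2 rose by 3.71 and 1.93, with an interval of the difference from -3.21 to -0.35. Bcl6, a repressor chosen after its values were seen, was the 1 that fell (-1.23 and -0.54). Lcn2, which encodes the iron carrier lipocalin 2, was 1 of the 2 genes of the difference class that changed more in mFoxO-TKO mice, by 4.65 ± 0.44 against 1.79 ± 0.44 (adjusted p of the mean contrast 3.6e-06).

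Cytokine receptors and growth signalling followed. Il6ra, the receptor subunit for interleukin 6, stood at 1.80, 1.51, 1.74 and 1.65 on fed WT arrays and at 5.03, 5.51 and 5.75 on 3 fasted ones. On 3 fed mFoxO-TKO arrays it stood at 1.72, 0.53 and 1.11, and on 3 fasted ones at 4.12, 4.41 and 4.10. Replicate 1 of those 3 groups was left out as an outlier spot. The gap between fed and fasted arrays was wide in both genotypes, with rises of 3.75 ± 0.25 and 3.09 ± 0.27. Il22ra2, a soluble receptor that traps interleukin 22, rose by 2.53 and 2.90, but was measured above background on 2 of 4 fed arrays of each genotype and met the rule under 11 of 27 alternatives that could be fitted for it. Mtor, the kinase at the centre of growth control by nutrients, rose by 0.94 ± 0.13 and 1.0 ± 0.13. Its fed arrays ran from 1.24 to 1.60 and its fasted arrays from 2.13 to 2.56.

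Of 28 genes of insulin and IGF signalling, 12 rose and 5 fell in the mean contrast, with 11 and 4 in WT and 3 and 4 in mFoxO-TKO mice. The shares of all genes tested that rose and fell were 14.5% and 12.8%, with 11.2% and 9.57% in WT and 4.29% and 4.23% in mFoxO-TKO mice. Mtor was the list's member of like size. Igf1, the growth factor itself, fell by 2.01 ± 0.27 in WT and 1.72 ± 0.27 in mFoxO-TKO mice (mean contrast adjusted p = 6.45e-06). Its other probes fell by 0.77 to 1.14 in WT and by 0.97 to 1.30 in mFoxO-TKO mice. Igfbp5, which binds IGFs, fell by 3.14 in WT and 1.38 in mFoxO-TKO mice (interval of the difference 0.57 to 2.94), with n = 3 fed WT arrays. The other 3 that fell, chosen after their values were seen, were Sesn3 (-0.88 and -0.83), Igf2 (-0.38 and -1.36) and Deptor (-0.49 and -0.33). Sesn1, an inhibitor of mTORC1 and FoxO target, belonged to the difference class with 3.16 in WT and 0.91 in mFoxO-TKO mice.

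Ubiquitin ligases of muscle atrophy held 1 gene of like size, Cblb, whose product marks insulin receptor substrate for breakdown. Cblb rose from between 0.10 and 0.73 fed to between 1.96 and 3.08 fasted, by 2.03 ± 0.22 and 1.79 ± 0.22. Its dimmer probe rose less in WT (0.97) than in mFoxO-TKO mice (1.58). Of the list's 20 genes, 11 rose and 3 fell in the mean contrast, against 10 and 1 in WT and 7 and 0 in mFoxO-TKO mice. Over all genes tested 14.5% rose in the mean contrast, 11.2% in WT and 4.29% in mFoxO-TKO mice. Trim63, or MuRF1, changed by 2.13 ± 0.33 and 1.89 ± 0.33, which the rule left undecided. Its dimmer probe gave 3.43 and 1.64, so the probes of Trim63 disagree on whether the changes were alike. Fbxo32, or atrogin-1, changed by 3.67 ± 0.32 and 2.19 ± 0.32 (interval of the difference -2.43 to -0.51). Klhl38, an adaptor of cullin ligases, changed by 2.77 and 1.65 (-1.94 to -0.30). Those that fell, chosen after their values were seen, were Fbxl22 (mean contrast -1.27), Trim55 (-0.68) and Trim32 (-0.40).

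Several genes of secreted, matrix and stromal proteins fell by a like amount, although none of them was in the matrix list. Lrrc17, a secreted leucine-rich repeat protein, had the largest fall of like size. It lay at -0.03, -0.09, -0.12 and -0.23 on fed and -4.00, -3.86, -3.81 and -3.03 on fasted WT arrays. On the mFoxO-TKO arrays it lay at 1.49, 1.14, 0.73 and -0.14 fed and -2.09, -1.27, -4.15 and -2.38 fasted. The fasted mFoxO-TKO arrays were spread widely, yet all lay below every fed array. The falls were -3.56 ± 0.47 and -3.28 ± 0.47, with 2 fasted WT and 3 fasted mFoxO-TKO arrays above background. Ccn4, a matricellular protein, fell by 2.67 ± 0.36 and 2.52 ± 0.36, and by 3.14 and 2.60 on its other probe. Thy1, a surface protein of fibroblasts and other stromal cells, lay at 3.22, 3.18, 3.46 and 3.04 on fed and 1.08, 1.77, 1.25 and 1.37 on fasted WT arrays. On 3 arrays each of mFoxO-TKO it lay at 3.37, 3.57 and 3.39 fed and 1.80, 1.18 and 1.53 fasted. Both genotypes shared the higher and the lower level, with falls of -1.86 and -1.94. Olfml2b, an extracellular matrix protein, fell by 1.86 and 1.89, Igsf10 by 1.90 and 1.90, the collagen gene Col26a1 by 2.17 and 2.16, and C1qtnf2, a secreted relative of adiponectin, by 1.79 and 1.82. Col26a1 met the rule under 5 and Igsf10 under 14 of 29 alternatives. Lrrc17 and Ccn4 met it under 10 of 27 each (Lrrc17 under 3 of the 16 that left out an array).

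Lox, which cross-links collagen, moved against the others. It lay between -0.96 and -0.32 on fed and between 0.44 and 1.58 on fasted arrays, and rose by 1.57 ± 0.24 and 1.53 ± 0.24. It met the like-size rule under 4 of 29 alternatives and under 0 of the 16 that left out an array. Of 25 matrix genes, 17 fell and 2 rose in the mean contrast, 16 fell and 1 rose in WT, and 13 fell and 1 rose in mFoxO-TKO mice. Over all genes tested 12.8% fell in the mean contrast, 9.57% in WT and 4.23% in mFoxO-TKO mice. The median of the matrix genes was -0.92 in WT and -0.82 in mFoxO-TKO mice. Collagens such as Col6a3 (-2.24 ± 0.37 and -1.97 ± 0.37, mean contrast adjusted p = 3.14e-05), Col3a1 (-1.98 and -1.96, with n = 3 in fed WT and fasted mFoxO-TKO mice) and Col15a1 (-1.79 and -2.05) were undecided, with an interval of -1.40 to 1.44 for Col3a1. Col15a1 was above background on 2 of 4 fasted arrays of each genotype, and its other probe gave -2.86 and -2.04. Other collagens had less equal point estimates, such as Col5a1 (-1.72 and -1.11), Col6a2 (-2.11 and -1.65) and Col1a1 (-1.06 and -0.57), named after their values were seen. Lama2, a basement membrane laminin chosen after its values were seen, was the other gene that rose (mean contrast 0.35 ± 0.12, adjusted p = 0.0468).

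Markers of other cell types were read beside these falls. In the mean contrast 14.5% of all genes tested rose and 12.8% fell. Of 6 tested fibroblast markers, Lum (-2.59 and -2.18) and Dpt (-0.68 and -0.51) fell in the mean contrast and 4 did not pass. The summed linear level of the list ran from 270.0 to 435.0 in fed WT and 278.0 to 385.0 in fasted WT mice, and from 273.0 to 335.0 and 227.0 to 378.0 in mFoxO-TKO mice, so these ranges overlapped. Of 7 macrophage markers 4 fell, namely Adgre1 (-1.14 ± 0.23), Mrc1 (-0.99 ± 0.18), Lyz2 (-0.77 ± 0.27) and Csf1r (-0.60 ± 0.17), each given as the mean contrast. Their summed level ran from 15.5 to 27.4 fed and 14.0 to 17.8 fasted in WT, and from 22.4 to 47.3 and 13.3 to 29.9 in mFoxO-TKO mice. Of 7 fat cell markers tested Adrb3 and Retn fell (-1.54 ± 0.41 and -1.10 ± 0.23) and Cidea rose (0.91 ± 0.28). Their sums overlapped between feeding states, from 81.3 to 127.0 fed and 66.9 to 124.0 fasted in WT and from 71.0 to 117.0 fed and 71.6 to 85.5 fasted in mFoxO-TKO mice. Of 8 endothelial markers Kdr fell (-0.69 ± 0.21), with the list's sum from 24.9 to 38.8 fed and 24.0 to 32.5 fasted in WT and from 20.6 to 43.9 and 26.4 to 35.2 in mFoxO-TKO mice. Among satellite cell markers Sdc4 rose (1.07 ± 0.17) and Pax7 fell (-0.72 ± 0.21), among Schwann cell markers Mbp rose (0.83 ± 0.19), and among smooth muscle and pericyte markers Acta2 fell (-0.74 ± 0.19). No neutrophil (4), lymphocyte (3) or red cell (6) marker tested passed. The part of such cells in the falls was not tested, and in whole muscle fewer cells of a type and less RNA per cell cannot be told apart.

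Other falls of like size were in genes of varied roles. Foxo6 is the member of the FoxO family that was not deleted. Its level was 3.86, 3.65, 3.90 and 3.99 on fed and 1.45, 1.76, 0.87 and 1.0 on fasted WT arrays. In mFoxO-TKO mice it was 4.48, 4.29, 4.45 and 4.28 fed and 2.90, 2.29, 1.85 and 1.90 fasted. Thus mFoxO-TKO arrays lay above WT arrays in either feeding state, and the fall was -2.58 ± 0.23 (5.99-fold) against -2.14 ± 0.23 (4.41-fold). On the other Foxo6 probe it was -1.77 and -2.02. Foxo1 rose by 2.34 ± 0.23 in WT, and its change of 0.70 ± 0.23 in mFoxO-TKO mice did not pass (adjusted p = 0.0809).

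Ttbk1, a tau kinase, lay at -1.76, -2.57, -2.25 and -2.13 on fed and -6.04, -6.02, -5.65 and -4.93 on fasted WT arrays. On the mFoxO-TKO arrays it lay at -0.67, -1.19, -0.82 and -0.71 fed and -3.05, -3.60, -4.00 and -3.63 fasted. Only 1 fasted WT array was above background, and the falls were -3.48 ± 0.26 and -2.72 ± 0.26. Ppm1n, a relative of the metal-dependent protein phosphatases, fell by 2.52 and 2.76, with 2 fasted WT and 3 fasted mFoxO-TKO arrays above background. Ttbk1 met the rule under 10 and Ppm1n under 8 of 27 alternatives, and their mean changes ran from -3.47 to -1.48 and from -2.79 to -1.30. Syt13, a relative of the synaptotagmins of vesicle traffic, was at least 3.41-fold lower in fasted WT and at least 3.10-fold lower in fasted mFoxO-TKO mice. Gprc5c, an orphan G protein-coupled receptor, fell by 1.51 and 1.60, and its 3 other probes by 1.35 to 1.57 in WT and by 1.36 to 2.19 in mFoxO-TKO mice. Pigz, a mannosyltransferase of GPI anchor synthesis, fell by 1.77 and 1.68.

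Other rises of like size outside the lists were those of Mlph, Gpr179, Galnt15 and Tmem82. Mlph encodes melanophilin, which links organelles to a myosin motor and whose promoter held the E-box. It lay between -6.64 and -4.75 on fed arrays, of which 1 in each genotype was above background, and between -3.02 and -0.85 on fasted arrays, with rises of 3.66 ± 0.42 and 3.40 ± 0.42. Gpr179, an orphan receptor known from the retina, rose by 3.20 ± 0.34 and 3.5 ± 0.34, with 1 fed WT and 3 fed mFoxO-TKO arrays above background. Galnt15, which starts O-linked glycosylation, was brighter. It lay at -2.09, -2.1, -1.90 and -2.20 on fed and 1.56, 1.07, 0.75 and 0.91 on fasted WT arrays. In mFoxO-TKO mice it lay at -1.28, -2.63, -3.08 and -3.25 fed and 0.35, 0.50, 0.78 and 0.68 fasted. Fed arrays were all negative and fasted arrays all positive, with rises of 3.14 and 3.14 (± 0.32 each). Tmem82, a transmembrane protein, rose by 2.54 and 2.19 and met the rule under 10 of 29 alternatives.

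Further genes of like size, named after their values were seen, were Dusp18, Tacc2, Rufy4, Spns2, Lgals4, Cnksr3, Tmed5, 2310057M21Rik and 2810408A11Rik, which rose by 0.89 to 1.84 in the mean contrast, and Rab3il1 and Lca5, which fell by 1.06 and 1.17. Spns2 exports the lipid mediator sphingosine 1-phosphate. Rufy4 was dim, with 2 of 4 fed arrays of each genotype above background. The 7 genes known only by accession, 3 higher and 4 lower, had mean changes from -2.60 to 2.90.

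Other lists had genes that passed in the mean contrast but held 0 genes of like size. Only 0.263% of all genes tested were of like size, so 0 does not set a list of this length apart. The difference of fasting changes passed for 1.15% of all genes tested. Over all genes tested 14.5% rose in the mean contrast, 11.2% in WT and 4.29% in mFoxO-TKO mice. Of 30 autophagy and lysosome genes 14 rose in the mean contrast, 13 in WT and 5 in mFoxO-TKO mice, with medians of 0.49 and 0.19. The fasting changes of 6 of them differed between the genotypes, among them Gabarapl1 (2.67 and 0.96), Ulk1 (1.99 and 0.42) and Depp1 (5.44 and 1.70). Of 32 proteasome genes 13 rose in the mean contrast (11 to 21 under alternatives with both slides), 12 in WT and 1 in mFoxO-TKO mice, the latter being Psmd11 (1.27 and 0.72). With 0 proteasome genes in the difference class, 32 of 32 are undecided or did not pass, and equal or unequal change cannot be stated for single subunits. Ribosome biogenesis showed 13, 11 and 4 rises of 24, with Tsr1, a pre-ribosome maturation factor, at 1.14 and 0.78. Of 17 immediate early genes 8 rose and 2 fell in the mean contrast, and 5 of the 17 were in the difference class, led by Maff (4.04 and 1.81).

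Of 26 genes of the ATF4 response 9 rose and 2 fell in the mean contrast, against 14.5% and 12.8% of all genes tested. Trib3, a pseudokinase that restrains Akt, stood at 2.25 and 1.24 and Gadd45a at 2.91 and 0.45. Amino acid catabolism had 9 rises and 0 falls among 25 genes, with 5 rises without the filter on dim probes and up to 13 under other alternatives. Among them Gpt2, an alanine transaminase, gave 0.59 and 0.74 and Prodh, which starts proline breakdown, 1.41 and 1.98 (mean contrast adjusted p at most 1.68e-04). Of 23 chaperone genes 5 rose and 1 fell, so this list passed at about the rate of all genes tested (27.3%). The heat shock genes Hspa1a (1.60 and 1.64) and Hspb7 (1.64 and 1.76) had near equal changes with intervals too wide for the rule (-1.01 to 1.08 for Hspa1a). Of 18 clock genes 8 rose and 0 fell, with Per2 at 1.1 ± 0.48 in WT and 1.99 ± 0.48 in mFoxO-TKO mice.

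Few genes of energy production and contraction passed, against 27.3% of all genes tested. Of 26 respiratory chain genes 0 passed, with medians of 0.00 in WT and 0.14 in mFoxO-TKO mice. Of 22 genes of glycolysis and glycogen, Gys1, glycogen synthase (0.36 ± 0.12), and Phka1, a phosphorylase kinase subunit (0.30 ± 0.10), rose in the mean contrast at adjusted p of 0.0419 and 0.0414, calls kept under 13 and 16 of 29 alternatives. Of 28 sarcomere genes, the light chain gene Myl2 rose (0.36 ± 0.12) and the cardiac actin gene Actc1 fell (-0.61 ± 0.21), with the calls kept under 10 and 13 of 28 alternatives. The cell cycle list is apart from these: of its 19 genes 2 rose, among them Cdkn1a of like size, and 5 fell. Ccnd1, cyclin D1, fell by 2.25 ± 0.44 and 1.88 ± 0.44.

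**Figure D4:**
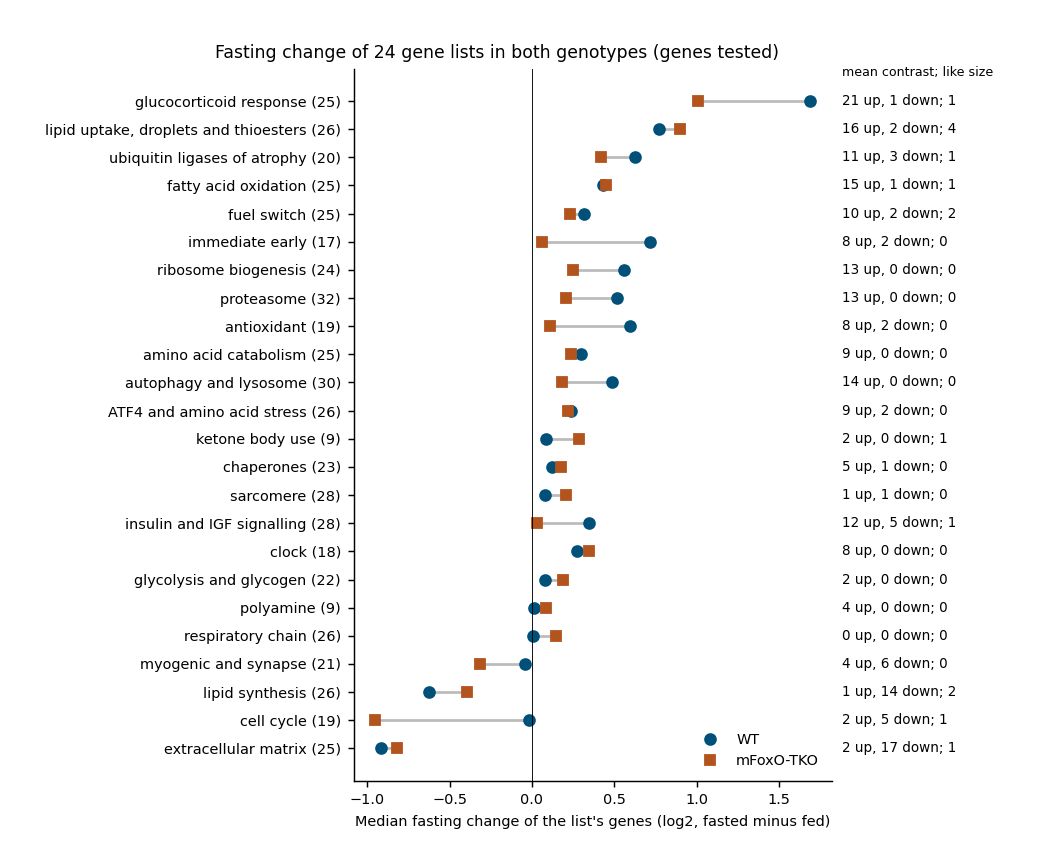
Median fasting change (x axis, log2 fasted minus fed) of 24 gene lists in WT (circles) and mFoxO-TKO mice (squares), with the number of genes tested after each name; at the right stand the genes that rose and fell in the mean contrast and then the number of like size. Lipid uptake (0.77 and 0.90) and matrix genes (-0.92 and -0.82) have close medians, while glucocorticoid (1.69 and 1.01) and immediate early genes (0.72 and 0.06) have medians further apart.

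A like fasting change does not require a like level. The difference between mFoxO-TKO and WT mice averaged over both feeding states, which the rule did not use, passed for 1862 of all genes tested (8.75%) and for 13 of the 56 genes of like size (23.2%), 10 higher (4.6% of all genes) and 3 lower (4.15%) in mFoxO-TKO mice. The rule favours genes with a small spread between arrays, which also pass this contrast more readily, so the shares are not on an equal footing. Gpr179 was higher in mFoxO-TKO mice by 1.81 ± 0.24 (adjusted p = 1.83e-04), Ttbk1 by 1.71 ± 0.18 (adjusted p = 2.4e-05) and Ppm1n by 1.15 ± 0.25 (adjusted p = 0.00764). Gpr179 was above background on 1 of 4 fed WT arrays, Ttbk1 on 1 and Ppm1n on 2 of 4 fasted WT arrays, so the sizes of these differences rest in part on dim signals. Higher by less were Gprc5c (0.86 ± 0.15), Cdkn1a (0.82 ± 0.18), Foxo6 (0.75 ± 0.16) and Tlcd2 (0.58 ± 0.14), with adjusted p-values up to 0.0124. Lower were Spns2 (-0.92 ± 0.14, adjusted p = 5.35e-04), Il6ra (-0.89 ± 0.18, adjusted p = 0.0092) and Acot2 (-0.75 ± 0.17, adjusted p = 0.00921). For Plin5 this difference was 0.08 ± 0.15, for Ucp3 0.02 ± 0.16 and for Pdk4 -0.31 ± 0.22, and none of these passed.

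**Figure D5:**
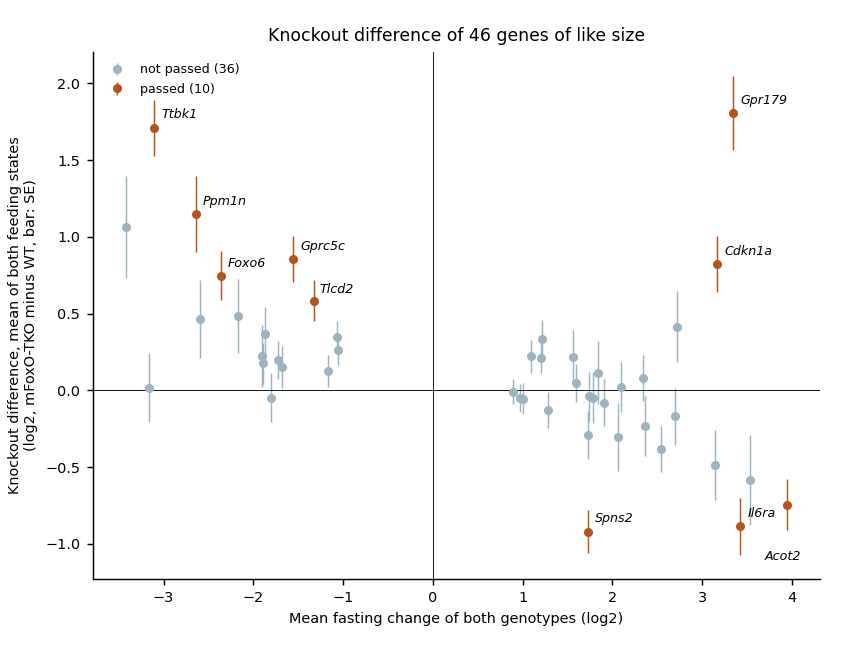
Difference between mFoxO-TKO and WT mice averaged over fed and fasted (y axis, log2, bars the SE) against mean fasting change (x axis, log2) for 46 genes of like size with a symbol; the 10 coloured and named genes passed at an adjusted p under 0.05. Among rises Gpr179 (1.81) and Cdkn1a (0.82) lie above 0 and Acot2, Il6ra and Spns2 below, whereas the named falls lie above 0.

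The slides repeat the design with 2 mice per group each. On slide 1 the change could be computed in both genotypes for 48 of the 49 genes with a symbol and on slide 2 for 49. All of these kept the same direction in both genotypes on each slide, the smaller change was at least 0.6 of the larger for 48 and 49, and the median ratio of smaller to larger change was 0.845 on slide 1 and 0.922 on slide 2. Both slides were in the data that chose the genes, so this describes how the members vary and does not test them.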

How the data were processed

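Quadriceps RNA of 16 mice was labelled with Cy3 and hybridised to 1-colour Agilent arrays, 1 mouse per array. The intensity used was the processed signal, which the authors deposited as scanner output already corrected for background, per the file headers written by Agilent Feature Extraction 11.0.1.1. The submitters' processing notes name version 9.5. The authors also deposited a table of scores for 18324 spots. On each array at least 99.7% of these lay within 2% of the processed signal times 1 factor, with the 75th percentile at 100 and medians from 22 to 25. It served as an alternative, with a pseudocount of 1.

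Control and outlier spots were left out, log2 intensities of repeated spots were averaged, and the array's 75th percentile over probes was subtracted. Probes well above background on all 4 arrays of some group were kept, and the brightest stood for a gene (28572 probes kept, 21282 genes). No depth applies to arrays, and their number limits the precision. The 4 group means were fitted over all 16 arrays with limma 3.58.1 (lmFit and eBayes) in R 4.3.3, files were read with the data.table package (version 1.17.8), and p-values were adjusted by Benjamini-Hochberg over 21282 genes at 0.05. A bound, written "at least", compares the bright group's mean with the lowest signal well above background on the dim arrays. The labels call the samples separate mice by number only, so p-values measure the spread between the arrays. The scripts were tested on simulated data.

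Members and gene lists were chosen with earlier results of these data known. Named were Foxo1, Foxo3 and Foxo4; the 15 largest rises and 15 largest falls of like size; in each list up to 5 members of like size and up to 3 other passing members; the 4 largest rises and 4 largest falls among genes whose difference passed; and 2 genes on each side of the limit. A few genes that the rule names are not reported here. The lists were 24 of pathways and 11 of markers. The knockout contrast averaged over feeding states was added after the data were seen. The normexp alternative used median signals, with an offset of 50. Same-numbered arrays deviated together at correlations from 0.0553 to 0.392, with 23 of 24 pairs over 0.1. That did not meet the rule for pairing, and arrays of 1 slide correlated at 0.17 on average against -0.169 across slides.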

Additional observations from a re-analysis of the deposited data

Results flagged for a closer look

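In 140 groups of 4 arrays checked among genes of like size, 8 held an array standing apart from the other 3 by more than Dixon's critical value at 95%, and chance gives about 1 in 20 groups. Mlph stood at -4.75 in fed WT replicate 1, where the nearest other array was -5.46, and at -0.848 in fasted mFoxO-TKO replicate 3, nearest -2.69. Il22ra2 stood at -0.95 in fasted mFoxO-TKO replicate 1, nearest -2.19. Fed mFoxO-TKO replicate 1 stood apart for Ucp3 (1.62, nearest 1.98) and Plin4 (6.76, nearest 6.11). Fasted mFoxO-TKO replicate 2 stood apart for Mtor (2.13, nearest 2.41) and Lox (0.545, nearest 1.19). Gprc5c stood at 2.06 in fasted WT replicate 4, nearest 2.31.

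For 15 named genes the fasting change itself differed between the genotypes (limma, Benjamini-Hochberg adjusted p under 0.05), and each value is mFoxO-TKO minus WT. Among genes that rose on average, the change was smaller in mFoxO-TKO mice for Depp1 (-3.74), Doc2b (-2.84), Gadd45a (-2.46), Srxn1 (-2.35), Sesn1 (-2.25), Maff (-2.24), Odc1 (-1.83), Gabarapl1 (-1.72), Foxo1 (-1.64), Ulk1 (-1.56) and Mafk (-1.39). It was larger for Lcn2 (2.85). Among genes that fell on average, it was smaller for Myod1 (3.02), Gdf1 (2.16) and Fam78a (1.99). Leaving out single arrays moved the count of genes with such a difference from 244 to between 133 and 437.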

How the results depend on the processing

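Among 111 named genes under up to 29 alternatives, 3073 of 3166 values stayed on the same side of the threshold, 93 lost the call and 0 called values reversed. Foxo4, which did not pass, kept its direction in 26 of 28. Counts moved more. Genes passing in mFoxO-TKO numbered 2728 with scaling on probes above background on all arrays, 1182 with normexp, 992 without the filter on dim probes, 2800 with slide as a block and 67 on slide 1 alone (1078 to 2113 leaving out 1 array each). Those passing in both genotypes numbered 1994, 715 without the filter, 1991 and 29 (856 to 1561). The difference of fasting effects passed for 520, 79 without the filter, 564, 5 on slide 1, 60 on slide 2, 424 with outlier spots kept, 711 in the authors' value table and 468 with the percentile over all spots, chosen after the data were seen (133 to 437, with 133 without fed WT replicate 4 and 437 without fasted mFoxO-TKO replicate 1). On slide 1 alone the mean contrast gave 1551 and WT 741. The numbers did not pair the samples by rule; with the replicate block the mean contrast gave 7865, WT 6348, mFoxO-TKO 3183, both 2245, the difference 697, like size 103 and the knockout contrast among genes of like size 14.

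The number of like size depended on the limit, with 5 genes for a limit of 1 in 3 of the mean change, 941 for the whole change, 3006 for a fixed limit of 1, 113 for a 90% interval and 2930 by point estimates. It was 6 on slide 1 and 112 on slide 2, and 32 to 81 leaving out 1 array each. Of the 56, 27 to 53 were of like size again under the alternatives that used all arrays and the same limit. The knockout contrast passed for 5 of the like-size genes on slide 1, 7 on slide 2 and 7 in the authors' value table. Signal near background limits Mlph, Gpr179, Il22ra2, Rufy4, Ttbk1, Ppm1n, Lrrc17 and Syt13.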
